A study of Mus musculus with 2 samples.

Results

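Dnase1l3, Col13a1, Enpp6, Aass, Olfm1, Mylip, Rnase4, Cdh13 and Tpbgl are 9 genes of liver sinusoidal endothelial cells (LSECs) whose transcripts were low in LSECs from mice that lack Maf in these cells. They are 9 of the 32285 genes counted. They were chosen by their measured values in the same cells, either for low levels in Maf LSEC-KO LSECs or for high levels in clusters of control LSECs, so their difference between the conditions is given as a description and is not tested.

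The cells came from a single-cell RNA-seq experiment on mouse liver with 1 library for each condition, each made from cells pooled from 3 mice, so there is no replicate check on any difference and no p-value is given. In Maf LSEC-KO mice, both alleles of Maf carried loxP sites (Maf fl/fl) and the Cre recombinase was expressed from the Clec4g-iCre transgene, which is active in LSECs. The control library, called WT in the labels, came from littermates without the Cre transgene that carried Maf fl/fl or Maf fl/wt, and mice of both sexes at 3 or 6 months of age were in use, without a source that says which of them gave the libraries. Livers were digested with collagenase, and LSECs were enriched by a density gradient and by magnetic beads against CD146, a surface protein of endothelial cells in general, so other liver cells and endothelial cells of larger vessels were also captured.

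LSECs line the capillaries of the liver lobule. They are thin, perforated by fenestrae and specialised in taking up material from blood, and their gene expression changes along the way from the portal tract to the central vein. Wnt2 and Rspo3 are ligands of the Wnt pathway that pericentral endothelial cells make. Maf is a transcription factor of the basic leucine zipper family that recognises DNA around the core TGCTGA. The 9 genes do not form a pathway. Dnase1l3 and Rnase4 encode secreted nucleases, Enpp6 a choline-specific phosphodiesterase at the cell surface, Aass a mitochondrial enzyme that starts lysine degradation, Mylip the ubiquitin ligase that sends the LDL receptor to the lysosome, Cdh13 a cadherin anchored by lipid that binds adiponectin, Col13a1 a collagen that spans the membrane, Olfm1 a secreted olfactomedin protein, and Tpbgl a membrane protein with leucine-rich repeats.

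In the mm10 annotation the genes lie on 7 chromosomes. Dnase1l3 spans 7964533 to 7994573 of chromosome 14 (minus strand) and Rnase4 51091077 to 51106151 of the same chromosome (plus strand), where it shares its 5′ exons with Ang, the gene of angiogenin. Enpp6 spans 46986887 to 47096762 of chromosome 8 (plus strand) and Cdh13 118283733 to 119324921 of the same chromosome (plus strand). Col13a1 spans 61838236 to 61979108 of chromosome 10 (minus strand), Aass 23072173 to 23132986 of chromosome 6 (minus strand), Olfm1 28192992 to 28230736 of chromosome 2 (plus strand), Mylip 45389742 to 45412022 of chromosome 13 (plus strand), and Tpbgl 99624082 to 99627103 of chromosome 7 (minus strand). Tpbgl lies within a locus that also carries the noncoding gene Gm10605 on the opposite strand.

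RefSeq promoter windows of GRCm38.p6, which run from 250 bases before to 50 bases after a gene's start, were found for 7 of the 9 genes, with 9 windows in all since Olfm1 and Rnase4 have alternative starts. The windows were searched on both strands for TGCTGA, for the longer TGCTGAC that contains it, and for TGANTCA, the site of related leucine zipper factors. TGCTGA was found in 1 of the 9 windows, that of Tpbgl, against 19.5% of 32851 mouse promoters of the same length. TGCTGAC was in none of the 9 (4.67% of all promoters), nor was TGANTCA (7.81%). Tpbgl and Col13a1 are shown because their levels across clusters were the most alike of the 9 genes. Both are written 5′ to 3′ on the strand of the gene, which is the minus strand at chr7:99627054-99627353 for Tpbgl and at chr10:61979059-61979358 for Col13a1, and the capitals mark the 6 bases that read TGCTGA on the opposite strand (chr7:99627103-99627108), which run up to and include the first transcribed base.
Tpbgl: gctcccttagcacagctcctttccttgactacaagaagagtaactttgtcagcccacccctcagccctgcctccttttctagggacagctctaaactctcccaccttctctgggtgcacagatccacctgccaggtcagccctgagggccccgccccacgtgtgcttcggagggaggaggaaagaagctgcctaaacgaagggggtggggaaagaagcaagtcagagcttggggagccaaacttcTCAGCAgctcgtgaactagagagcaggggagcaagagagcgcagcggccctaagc
Col13a1: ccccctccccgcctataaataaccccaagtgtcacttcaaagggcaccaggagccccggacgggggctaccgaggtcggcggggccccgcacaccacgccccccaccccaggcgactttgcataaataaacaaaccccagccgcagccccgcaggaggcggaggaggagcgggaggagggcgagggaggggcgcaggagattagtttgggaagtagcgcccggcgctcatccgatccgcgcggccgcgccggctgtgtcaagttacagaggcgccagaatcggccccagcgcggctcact
No match was found in the other 8 windows. A match of this length is a description of letters and says nothing about binding.

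Levels are given as unique molecular identifiers (UMIs), which count captured RNA molecules, summed over the LSECs of a class and scaled to counts per 1e+06 UMIs of that class outside mitochondrial and ribosomal protein genes (CPM). Brackets after a value give its exact 95% interval, which covers counting error only. LSECs were the 4120 control and 3163 Maf LSEC-KO cells that fell in endothelial-like clusters, were not scored as doublets and had no UMI of Vwf, a marker of endothelium of larger vessels. The median was 8416.5 UMIs per control LSEC (1512 to 53852) and 14030 per Maf LSEC-KO LSEC (1506 to 103948). All 9 LSEC markers of a list (among them Stab2, Lyve1 and Clec4g) were at 10 CPM or more in both libraries, with a summed level of 17057 CPM in control and 6923 in Maf LSEC-KO. The summed levels of hepatocyte, stellate and erythroid markers were 232, 119 and 1243 CPM in control LSECs and 95.4, 9.42 and 14.6 in Maf LSEC-KO LSECs, those of proliferation markers 354.7 and 1949 CPM, and those of macrophage markers 71.2 and 113. Cholangiocyte markers were at 106 CPM in control and 8.78 CPM in Maf LSEC-KO LSECs. The part of these differences in the results was not tested. Maf itself was at 3453 CPM in control and 123 CPM in Maf LSEC-KO LSECs. Which part of Maf is deleted is not given in the sources used here, and the UMIs come from the 3′ end of the transcript. Clec4g, whose regulatory sequence drives the Cre transgene, was at 3000 and 1535 CPM. 10 barcode sequences occurred in both libraries, 4 of them among LSECs.

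All 9 genes were lower in Maf LSEC-KO than in control LSECs, by 11.5-fold (Olfm1) to 40.7-fold (Enpp6). Each was at least 4-fold lower, as were 87 of the 4518 genes with 50 CPM or more in either library (1.93%), and since the genes were chosen on this contrast the count follows from the choice. The log2 ratio, in which negative values are lower in the knockout, had a median of −4.18 over the 9 genes and 0.11 over the 4518. Ordered by this ratio from the lowest, they held the ranks 6 (Enpp6) to 26 (Olfm1), with Maf at rank 9.

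The secreted nucleases were both lower. Dnase1l3, which digests DNA released from dying cells, was at 3572 CPM in control and 119.9 CPM in Maf LSEC-KO LSECs (−4.90 [−4.94 to −4.86]). At least 1 UMI of Dnase1l3 was found in 98.7% of control and 14.3% of Maf LSEC-KO LSECs, so most Maf LSEC-KO cells had none at a greater depth. Rnase4, a small ribonuclease of the RNase A family, was at 77.3 CPM in control and 3.39 CPM in Maf LSEC-KO (−4.51 [−4.78 to −4.26]). Ang, which shares 5′ exons with it, was at 19.9 and 1.27 CPM. Reads from the shared exons cannot be assigned to either gene alone, though the UMIs come from the 3′ end of transcripts. How many reads fell in those exons was not counted.

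The enzymes and the ubiquitin ligase were lower by different factors. Enpp6 was at 80.7 CPM in control and 1.99 CPM in Maf LSEC-KO LSECs (−5.35 [−5.69 to −5.02]), a value that rests on 78 UMIs in the Maf LSEC-KO cells. Aass was at 287.9 and 21.1 CPM (−3.77 [−3.87 to −3.66]), and Mylip at 434 and 35.0 CPM (−3.63 [−3.71 to −3.55]). Enpp6 was thus the furthest below control of the 9 genes, though its interval overlaps that of Col13a1, while Aass and Mylip were among the 3 nearest to control.

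The surface and matrix genes were lower as well. Col13a1 was at 343 CPM in control and 9.70 CPM in Maf LSEC-KO (−5.14 [−5.30 to −5.00]), and Cdh13 at 149 and 8.22 CPM (−4.18 [−4.35 to −4.02]). Tpbgl was at 482 and 27.05 CPM (−4.16 [−4.25 to −4.07]), with an interval inside that of Cdh13. Olfm1, at 127 and 11.1 CPM (−3.52 [−3.66 to −3.38]), kept the greatest share of its control level, with an interval that overlaps that of Mylip.

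**Figure D1:**
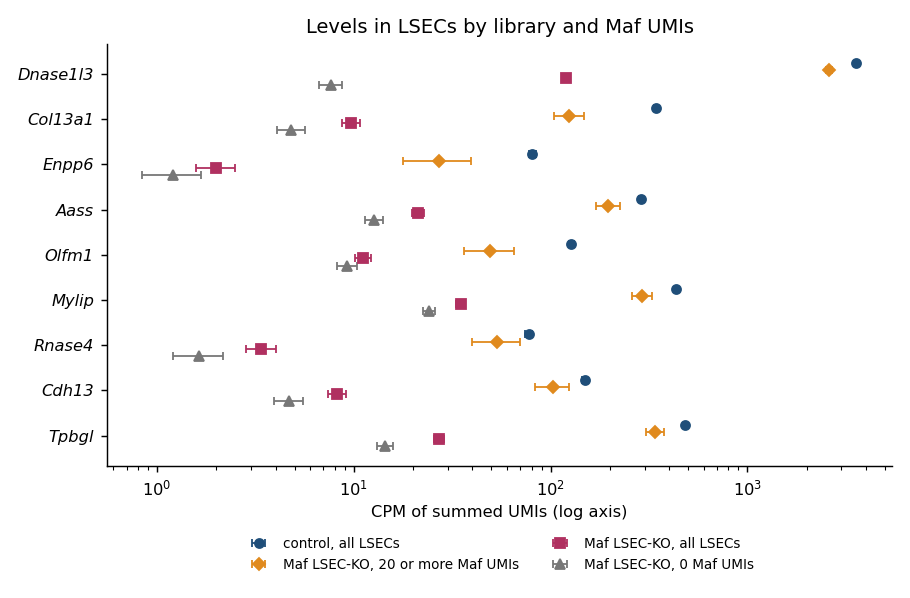
Level of each of the 9 genes in CPM of summed UMIs (log axis) in all control LSECs, in all Maf LSEC-KO LSECs, and in the Maf LSEC-KO LSECs with 20 or more and with 0 Maf UMIs; horizontal bars are exact 95% intervals for counting error. Cells with 20 or more Maf UMIs lie below the control level by log2 ratios of −0.46 (Dnase1l3) to −1.57 (Enpp6), and cells with 0 lie lowest for each gene.

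Single cells show the same separation at 1 depth. When each LSEC with 2700 UMIs or more was thinned to 2700 UMIs, leaving out 406 control and 182 Maf LSEC-KO cells, a UMI of Dnase1l3 was found in 99.1% of control and 8.65% of Maf LSEC-KO LSECs (98.7% and 14.3% before thinning). For the other 8 genes the thinned shares were 11.6% (Enpp6) to 62.2% (Tpbgl) in control and 0.537% (Enpp6) to 7.04% (Mylip) in Maf LSEC-KO. Each of the 9 shares in Maf LSEC-KO cells was thus below the lowest share in control cells. Levels in cells of other types stand beside these values, and their source, such as free RNA in the droplets, was not tested. In B cell-like, T or NK cell-like and neutrophil or monocyte-like clusters, which should not make LSEC transcripts, a Dnase1l3 UMI was found in 55.2% of 116 control cells (median depth 4904.5 UMIs) and 5.95% of 185 Maf LSEC-KO cells (median 4907).

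The level of the 9 genes in these immune cells differed between the libraries as well. In control it ran from 34.4 CPM for Rnase4 to 1543 CPM for Dnase1l3, and Mylip was at 235.5 CPM. In Maf LSEC-KO it was 18.1 CPM for Dnase1l3 and 1.13 to 4.52 CPM for 6 others, and no UMI of Col13a1 was found, which allows up to 3.39 CPM. Mylip was the exception at 76.9 CPM, above its level of 35.0 CPM in Maf LSEC-KO LSECs. A Mylip UMI was found in 25.4% of these immune cells and 23.2% of the LSECs. The immune level can therefore not be read as a background for Mylip. In control LSECs all 9 genes were above the immune cell level of their library. The part of free RNA in the levels of control LSECs was not tested.

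Control LSECs carried several of the 9 genes at the same time. At 2700 UMIs a control LSEC had UMIs of 3.82 of the 9 genes on average (median 4), 8 of 3714 cells (0.215%) had none, and 1194 (32.1%) had 5 or more. A Maf LSEC-KO LSEC had 0.325 on average, 2392 of 2981 (80.2%) had none, and 20 (0.671%) had 5 or more. Correlations between the 9 genes over thinned control cells were weak, with a highest Spearman's rho of 0.177 and a median of 0.063, where all cells share 1 library and the depth is equal.

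**Figure D2:**
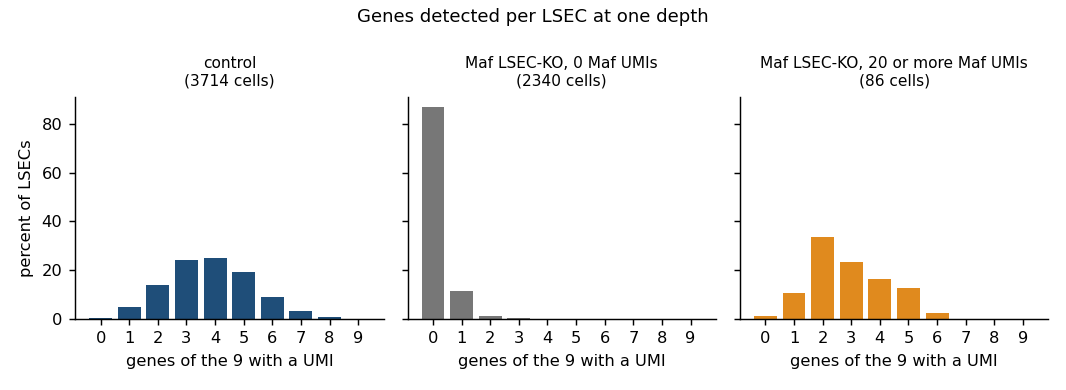
Percent of LSECs (vertical axis) by how many of the 9 genes had a UMI (horizontal axis), with each cell thinned to 2700 UMIs, in control, in Maf LSEC-KO cells with 0 Maf UMIs and in Maf LSEC-KO cells with 20 or more Maf UMIs. The bars are tallest around 4 genes in control, at 0 genes in cells without Maf UMIs (87%), and at 2 to 4 genes in cells with 20 or more Maf UMIs.

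Within the Maf LSEC-KO library the 9 genes were higher in cells with 5 or more Maf UMIs than in cells with fewer. Of the 3163 Maf LSEC-KO LSECs, 2496 had 0 Maf UMIs, 338 had 1, 129 had 2 to 4, 114 had 5 to 19 and 86 had 20 or more, where the median control LSEC had 22. The median depth of these classes was 13928.5, 18057.5, 16736, 8236.5 and 11936 UMIs, so the classes with most Maf were not the deepest. All 9 genes were at least 2-fold higher in the 200 cells with 5 or more Maf UMIs than in the 2496 with 0, with a median log2 ratio of 3.98. Among genes with 1 CPM or more in either class, which include all 9, 7.31% of 12660 were 2-fold higher (median log2 ratio −0.08), and among those with 50 CPM or more, which include 6 of the 9, 3.97% of 4538. The genes were chosen for low levels in these cells, nearly all of which lack Maf UMIs or have few, so the count is a description and is not independent of the choice.

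Dnase1l3 had the widest range across the classes, at 7.62, 15.4, 99.1, 1547 and 2601 CPM from 0 to 20 or more Maf UMIs. It was 271-fold higher with 5 or more Maf UMIs than with 0 (log2 ratio 8.08 [7.89 to 8.28]). Its level in cells with 0 Maf UMIs lies below the 18.1 CPM of immune cells in the same library, and the source of that immune level was not tested. Rnase4, the other nuclease, was at 1.64, 3.04, 0.967, 12.5 and 53.2 CPM (4.31 [3.75 to 4.87]), and its first 3 classes lie within the interval of the immune cells of this library, 0.274 to 8.17 CPM.

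The other 7 genes were at 0.19 to 34.3 CPM up to 2 to 4 Maf UMIs, and each was higher from 5 Maf UMIs on. Col13a1 was at 4.81, 3.80, 7.25, 75.1 and 124.5 CPM (log2 ratio of 5 or more to 0, 4.37 [4.05 to 4.69]), and Tpbgl at 14.4, 13.5, 20.8, 171 and 340 CPM (4.14 [3.95 to 4.33]). Cdh13 was at 4.68, 2.09, 10.6, 46.2 and 102 CPM (3.98 [3.64 to 4.32]). The intervals of these 3 genes of the cell surface overlap.

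Among the enzymes, Aass was at 12.7, 13.7, 21.3, 133.9 and 196.8 CPM (3.70 [3.48 to 3.91]). Mylip was at 24.2, 25.2, 34.3, 151 and 291 CPM (3.18 [3.01 to 3.36]). Its first 3 classes were below the immune level of this library, which is no background for this gene. Enpp6 was at 1.2, 0.19, 1.45, 10.6 and 27.1 CPM (3.96 [3.26 to 4.66]), where the middle classes rest on 1 and 3 UMIs. Olfm1 had the flattest course, at 9.22, 9.11, 9.67, 41.4 and 49.2 CPM (2.29 [1.94 to 2.64]), and its interval overlaps that of none of the other 8 genes.

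**Figure D3:**
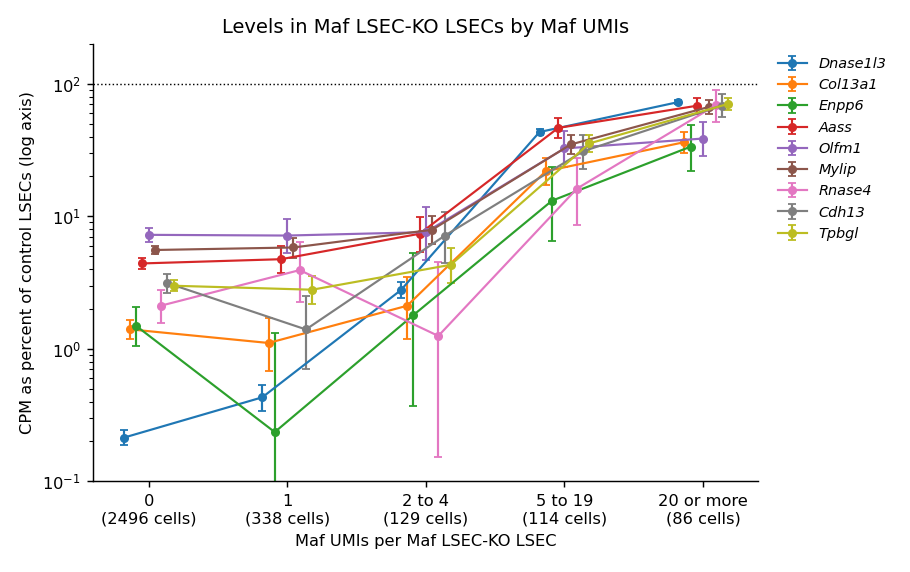
CPM in Maf LSEC-KO LSECs as percent of the control LSEC level (log axis) for each of the 9 genes, by Maf UMIs per cell; bars are exact 95% intervals for counting error and the dotted line is the control level. The curves are flat to 2 to 4 Maf UMIs for most genes, step up at 5 to 19, and Dnase1l3 starts lowest at 7.62 of 3572 CPM.

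Cells with 20 or more Maf UMIs came near to control LSECs but below them. Their Maf level was 2849 CPM (log2 ratio to control −0.28 [−0.33 to −0.22]). Dnase1l3, Aass, Mylip, Rnase4, Cdh13 and Tpbgl had log2 ratios to control of −0.58 to −0.46. Col13a1 (−1.46 [−1.73 to −1.21]), Enpp6 (−1.57 [−2.18 to −1.03]) and Olfm1 (−1.37 [−1.81 to −0.97]) were lower still, and their intervals do not reach the ratios of the other 6 genes. Cells with 0 Maf UMIs were 469-fold below control for Dnase1l3, 71.3-fold for Col13a1, 67.1-fold for Enpp6, 47.2-fold for Rnase4, 33.4-fold for Tpbgl, 31.9-fold for Cdh13, 22.7-fold for Aass, 18.0-fold for Mylip and 13.8-fold for Olfm1.

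A small group of cells therefore held a large share of what was left of these transcripts. The 200 cells with 5 or more Maf UMIs were 6.32% of Maf LSEC-KO LSECs and held 5.18% of their UMIs, but 89.1% [88.2 to 90.0] of their Dnase1l3 UMIs. They held 53.0% of the Col13a1, 49.6% of the Rnase4, 48.7% of the Enpp6, 48.6% of the Tpbgl, 46.4% of the Cdh13, 40.3% of the Aass, 32.5% of the Mylip and 21.1% of the Olfm1 UMIs. Other properties moved with the Maf class. From 0 to 20 or more Maf UMIs the summed LSEC markers were at 6483 and 15745 CPM, pericentral markers at 124 and 629, proliferation markers at 2043 and 232, and macrophage markers at 94.2 and 277 CPM, and their part in the result was not tested. The median doublet score was 0.054 with 0 and 0.023 with 20 or more Maf UMIs.

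In the control library Maf varied less, and the 9 genes varied less with it. Control LSECs with 2700 UMIs or more were split into 4 groups of near equal size by Maf UMIs per 10000, with 929 cells each in the lowest and the highest group and Maf at 1516 and 5444 CPM. Of the 9 genes, 5 were at least 1.5-fold higher in the highest than in the lowest group, against 1.86% of 4135 genes, and 0 were 1.5-fold lower, against 3.02%. The median log2 ratio was 0.71 over the 9 genes and 0.01 over all genes. The genes were chosen in part for high levels in clusters of control LSECs. These counts are therefore a description and are not independent of the choice.

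Mylip went from 246 to 595 CPM between the lowest and highest group (log2 ratio 1.27 [1.19 to 1.35]), Rnase4 from 45.9 to 107 CPM (1.23 [1.04 to 1.42]) and Enpp6 from 54.2 to 110.1 CPM (1.02 [0.85 to 1.2]). Olfm1 (0.95) and Aass (0.71) were the other genes past 1.5-fold. Below it, Col13a1 was at 279 and 372 CPM (0.42), Dnase1l3 at 3033 and 3866 CPM (0.35 [0.32 to 0.38]) and Tpbgl at 433 and 522 CPM (0.27). Cdh13, at 154 and 145 CPM (−0.09 [−0.21 to 0.03]), did not differ beyond its counting error. Dnase1l3, the gene with the widest range over Maf classes in the knockout, was thus one of 4 genes under 1.5-fold in control.

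These groups differed in more than Maf. Median depth was 7424 UMIs in the lowest and 9309 in the highest group, Rspo3 was at 167.7 and 24 CPM and Wnt2 at 259.5 and 278.5 CPM. Within cells with no UMI of Wnt2 or Rspo3, within the lower and within the upper class of these markers, the log2 ratio of the highest to the lowest group was 1.38, 1.17 and 1.05 for Mylip, 1.10, 0.99 and 0.98 for Enpp6, and 0.86, 1.23 and 1.10 for Rnase4. Olfm1 had 0.97, 1.26 and 0.59, so these 4 genes were past 1.5-fold in each class, while Aass had 0.89, 0.77 and 0.37 and was not past it in the upper class. Cdh13 had −0.31, 0.16 and −0.29, and so no common direction.

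The 9 genes differed in their position along the lobule. In control LSECs with 2700 UMIs or more, 1278 had no UMI of Wnt2 or Rspo3, and the others were split into a lower and an upper class of 1218 cells each by their summed level. Comparing the upper class with cells that had none, 5 of the 9 genes were at least 1.5-fold higher, against 2.61% of 4068 genes, and 0 were 1.5-fold lower, against 2.06%. As the genes were chosen in part for high levels in clusters of these cells, the counts are not independent of the choice. The same limit holds for the counts by portal markers and in Maf LSEC-KO cells given below. Maf was at 3211, 3597 and 3498 CPM in the 3 classes.

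Cdh13, which the study uses as one of its pericentral landmarks, had the steepest course, at 36.6, 102 and 298 CPM from none to upper (8.14-fold, log2 ratio 3.03 [2.86 to 3.19]). Rnase4 was at 37.7, 61.2 and 129.5 CPM (1.78 [1.61 to 1.96]), Olfm1 at 62.8, 108 and 201 CPM (1.68 [1.54 to 1.82]) and Mylip at 276, 435 and 564 CPM (1.03 [0.96 to 1.10]). These genes were pericentral by this measure, in 3 steps of the same direction. Tpbgl, at 384, 481 and 576 CPM (0.59 [0.53 to 0.65]), was just past the limit of 1.5-fold and fell below it after thinning (0.37). The count of 5 became 4 or 3 under 10 of 16 alternatives.

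The remaining genes were spread more evenly. Col13a1 was at 282, 343 and 397 CPM (0.49 [0.42 to 0.56]), Enpp6 at 73.2, 73.8 and 97.5 CPM (0.41 [0.27 to 0.56]) and Dnase1l3 at 3282, 3697 and 3764 CPM (0.20 [0.18 to 0.22]). Aass, at 265.5, 310 and 283 CPM (0.09 [0.01 to 0.17]), was nearly level. Classing cells by Rspo3 alone, with 167 cells in the upper class and 3379 without a UMI, left 3 genes higher (Cdh13, Olfm1, Rnase4), put Aass at least 1.5-fold lower, at 182 against 294 CPM, and turned the log2 ratio of Dnase1l3 to −0.21.

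**Figure D4:**
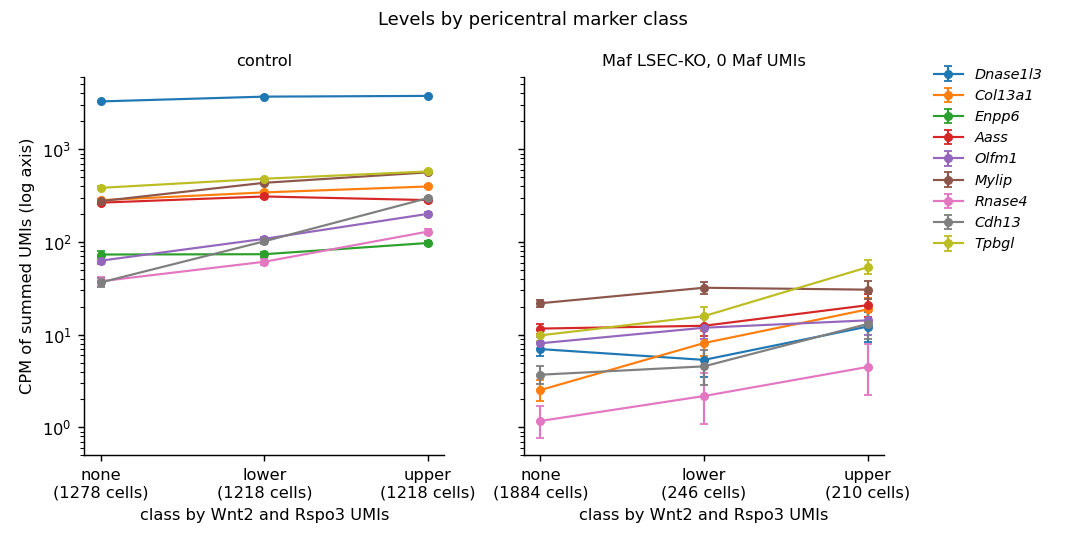
CPM of summed UMIs (log axis) of the 9 genes in LSECs with no Wnt2 or Rspo3 UMI and in the lower and upper class of cells with them, in control (left) and in Maf LSEC-KO LSECs with 0 Maf UMIs (right, without Enpp6, which had 1 UMI in the upper class); bars are exact 95% intervals for counting error. In control Cdh13 climbs from 36.6 to 298 CPM while Dnase1l3 and Aass stay nearly level.

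Of these 5 genes, all but Tpbgl were also low where portal markers were high. Control LSECs were classed by Efnb2, Dll4, Ltbp4 and Ntn4, and 1788 cells of the upper class were compared with 138 that had none of these. Olfm1 (79.1 against 250.6 CPM), Mylip (335 against 598), Rnase4 (45.9 against 149) and Cdh13 (81.7 against 296) were at least 1.5-fold lower, 4 of 9 against 4.38% of 4243 genes, and 0 of 9 were 1.5-fold higher, against 4.97%. The depth of these classes differed, with a median of 9073.5 and 4250 UMIs, and Rspo3 was at 16.1 and 400.9 CPM. The log2 ratios of Dnase1l3 (0.31), Aass (0.30), Enpp6 (0.26), Tpbgl (0.01) and Col13a1 (−0.03) stayed within the limit.

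Wnt2 and Rspo3 were themselves lower in Maf LSEC-KO than in control LSECs, at 35.4 against 282 CPM and 7.76 against 76.9 CPM, so fewer Maf LSEC-KO cells entered the classes. All 9 genes were at least 1.5-fold higher in the 320 cells of the upper class than in the 2340 with none, and 0 were lower. Among genes with 1 CPM or more in either class, which include all 9, 7.79% of 12670 were higher and 9.53% lower, and among those with 50 CPM or more, which include 3 of the 9, 2.51% and 2.85% of 4347. Maf was at 428 and 91.3 CPM in these classes, so the class and the Maf of the cell cannot be told apart there. Within each class all 9 genes were lower than in the control class of the same name. These classes are not matched, since each library was split at its own median. In the upper class Wnt2 was at 279 CPM in Maf LSEC-KO and 627 CPM in control, and Rspo3 at 57.4 and 222 CPM. A class need not be the same position along the lobule in both libraries. The log2 ratio to control was −5.38 in cells with none and −2.89 in the upper class for Dnase1l3, and −3.27 and −2.61 for Cdh13.

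Among the Maf LSEC-KO LSECs with 0 Maf UMIs, 1884 had no Wnt2 or Rspo3 UMI, 246 were in the lower and 210 in the upper class. Here 7 of the 9 genes were at least 1.5-fold higher in the upper class than in cells with none, and 1 was lower (Enpp6, with 1 against 34 UMIs). Among genes with 1 CPM or more in either class, which include all 9, 8.28% of 12614 were higher and 10.8% lower, and among those with 50 CPM or more, which include only Tpbgl of the 9, 1.92% and 2.91% of 4327. Col13a1 went from 2.53 to 18.8 CPM (log2 ratio 2.89 [2.30 to 3.48]), Tpbgl from 9.83 to 53.4 CPM (2.44 [2.12 to 2.76]), Rnase4 from 1.17 to 4.49 CPM (1.94 [0.77 to 3.0]) and Cdh13 from 3.70 to 13.1 CPM (1.82 [1.18 to 2.42]). The order differs from control, where Cdh13 had a log2 ratio of 3.03 and Col13a1 of 0.49, and the difference was not tested. Dnase1l3, Aass, Olfm1 and Mylip had log2 ratios of 0.81, 0.84, 0.82 and 0.49, and the interval of Enpp6 (−7.26 to 0.66) includes no difference.

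The levels by cluster show where the transcripts were left. The cells of each library were clustered separately, which gave 27 clusters, 7 endothelial-like in control and 8 in Maf LSEC-KO. Levels by cluster include cells with a Vwf UMI, which were kept out of the LSECs. Among these, the 10 leading genes of 2 control clusters (erythroid or hepatocyte genes) and 2 Maf LSEC-KO clusters (globin genes in one, platelet and hepatocyte genes in the other) held more markers of another cell type than of endothelium, and the clusters held 1019 and 1088 LSECs. Without them all 9 genes were still at least 4-fold lower in Maf LSEC-KO, with a median log2 ratio of −4.06. In 1 Maf LSEC-KO cluster of 211 cells, led by Dnase1l3 and Maf (2319 CPM of Maf), the 9 genes were at 2478 CPM (Dnase1l3), 303 (Tpbgl), 263 (Mylip), 188.8 (Aass), 115.9 (Col13a1), 109 (Cdh13), 57.1 (Olfm1), 36.7 (Rnase4) and 24.9 CPM (Enpp6). Its 198 LSECs held 88.2% of the Dnase1l3 UMIs of Maf LSEC-KO LSECs, 52.0% of the Col13a1 and 51.3% of the Enpp6 UMIs. For the other 6 genes they held 21.1% (Olfm1) to 48.3% (Cdh13), so the larger part lay in other clusters. The clusters were formed with these genes among others, so their levels describe the clusters and are no test.

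Outside this cluster the ranges of the libraries were apart for 6 of the 9 genes. Over the 7 control clusters Dnase1l3 ran from 2036 to 3890 CPM, and over the other 7 Maf LSEC-KO clusters from 6.87 to 70.6 CPM, where the lowest control value and the highest Maf LSEC-KO value are from clusters with leading genes of other cell types. Col13a1 ran from 171 to 391 and from 0 to 25.6 CPM, Aass from 94.6 to 321 and from 1.29 to 23.5, and Tpbgl from 259.5 to 588 and from 6.72 to 79.8 CPM. For Enpp6 the ranges were 44.0 to 104 and 0 to 2.60 CPM, and for Rnase4 18.9 to 157.5 and 1.18 to 12.6 CPM. These 6 genes thus did not overlap over the clusters named endothelial-like. A Maf LSEC-KO cluster led by Dcn and Ccl21a, left unnamed after its values were seen, is not among these clusters. In that cluster Enpp6 was within its control range and Rnase4 above it.

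Cdh13, Olfm1 and Mylip overlapped because of 1 Maf LSEC-KO cluster. It held 183 cells, was led by Rspo3, Bmp4, Wnt9b and Vwf and had Rspo3 at 2846 CPM and Maf at 14.7 CPM. Cdh13 was at 382 CPM there, Mylip at 182.5 CPM and Olfm1 at 119.6 CPM, while the next cluster in order had 63.6, 35.3 and 14.9 CPM. Dnase1l3 was at 22.5, Col13a1 at 25.6 and Rnase4 at 12.6 CPM in the same cluster. These levels include its cells with a Vwf UMI and are not those of LSECs alone. Over Maf LSEC-KO LSECs outside the cluster led by Dnase1l3 and Maf, Cdh13 was at 4.44 CPM (167 UMIs). Mylip was at 24.7 and Olfm1 at 9.14 CPM in those LSECs. In the control cluster with most Rspo3 (1085 CPM, 495 cells), Cdh13 was at 499, Olfm1 at 272 and Rnase4 at 157.5 CPM, the highest of the 7 control clusters for each. Spp1, Dcn and Tm4sf4 also led this cluster, and markers of stellate cells and cholangiocytes were among its 50 leading genes. Their part in these levels was not tested.

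Cells with Vwf UMIs, which were kept out of the LSECs but not out of the clusters, also differed in Cdh13 and Dnase1l3. They are in part the cells of the clusters above, so this is no separate observation. In control endothelial-like cells with 0, 1 and 2 or more Vwf UMIs, Cdh13 was at 149, 278 and 545 CPM and Dnase1l3 at 3572, 2817 and 939.6 CPM. In Maf LSEC-KO cells Cdh13 was at 8.22, 19.8 and 105 CPM and Dnase1l3 at 119.9, 37.3 and 12.7 CPM. The genes thus went in opposite directions with Vwf in both libraries.

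**Figure D5:**
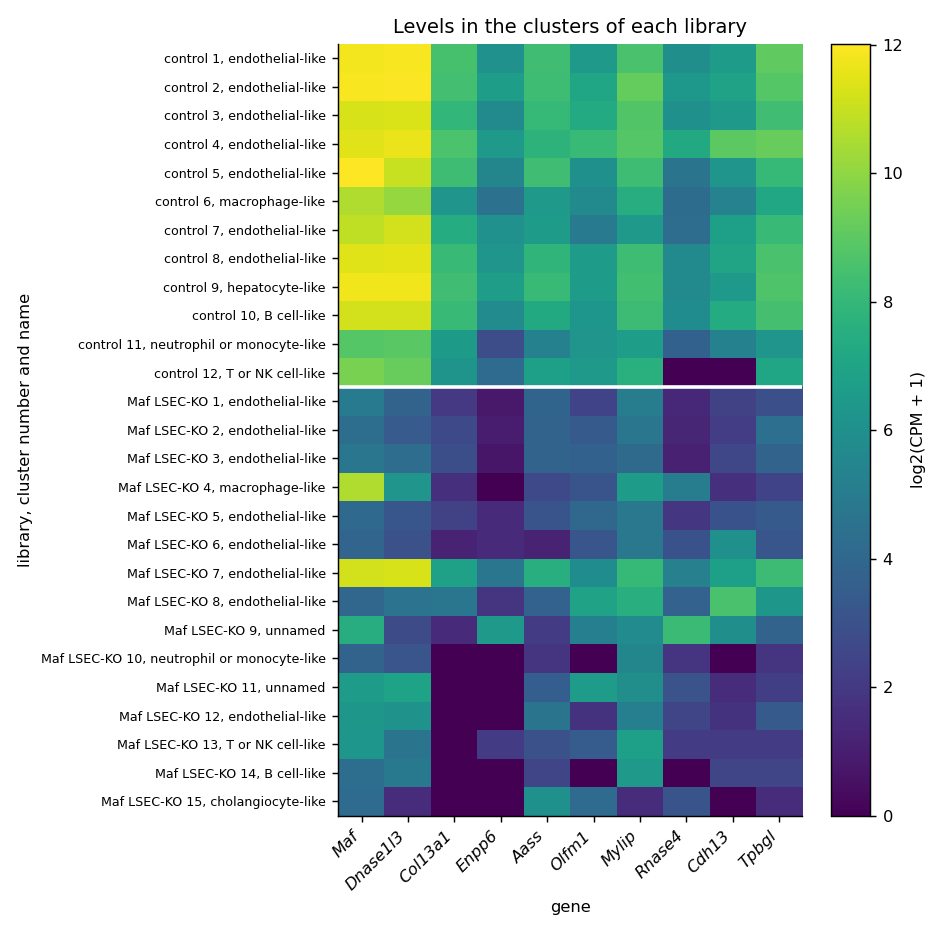
Levels of Maf and the 9 genes, as log2(CPM + 1) in colour, in the 27 clusters of the control (top) and Maf LSEC-KO (bottom) libraries, with the name given to each cluster. Cells with a Vwf UMI are included. Of the Maf LSEC-KO clusters, cluster 7 carries all 9 genes together with Maf (2319 CPM), cluster 8 carries Cdh13, Olfm1 and Mylip without it, and the immune clusters of control carry LSEC transcripts (Dnase1l3 at 1543 CPM).

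Among the genes whose level over the 27 clusters was most like each of the 9, other members held 6 of the 27 places, for Dnase1l3, Col13a1, Aass, Mylip and Tpbgl. Likeness was measured by Pearson's r of log2(CPM + 5) over the 27 clusters, with 8287 genes compared, and is a description. The clusters share 2 libraries, immune clusters of control carry LSEC transcripts, and the 9 genes were chosen for a common pattern across the same cells. For Col13a1 and Tpbgl the nearest gene was the other of the pair (r = 0.985), followed by Gm10605 (0.980 and 0.981). Whether reads of Gm10605, which lies opposite to Tpbgl, were counted for Tpbgl or the reverse was not tested. Dnase1l3 was nearest to Fcgr2b (0.942), an Fc receptor of LSECs, then Maf (0.941) and Col13a1 (0.936). Aass was nearest to Dpp4 (0.938), Ralgapa2 (0.937) and Col13a1 (0.918).

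The other genes were less close to their nearest genes. Mylip was nearest to Rnf145 (0.871), Dnase1l3 (0.863) and Gm10605 (0.849), and Enpp6 to Slc39a8 (0.931), Rcn3 (0.899) and Slco2a1 (0.881). Cdh13 was nearest to Khdrbs3 (0.898), Slco2a1 (0.879) and Jam2 (0.877), Rnase4 to Sema3d (0.885), Rcn3 (0.865) and Abi3bp (0.841), and Olfm1 to Rcn3 (0.821), Ahr (0.816) and Rarb (0.814). Of the 9 genes, Cdh13 was the least like Maf itself (0.585).

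Most relatives of the 9 genes did not share their difference between the conditions. Among genes with 10 CPM or more in either library, 4.76% of 9306 were at least 2-fold lower and 10.2% at least 2-fold higher in Maf LSEC-KO LSECs. Without the 9 genes themselves, 4 of the 45 genes of this level in 7 lists of relatives were at least 2-fold lower and 6 were higher. Of 6 nucleases, Ang (log2 ratio −3.97) and Dnase2a, the lysosomal DNase (21.9 against 7.69 CPM, −1.51), were lower, while the ribonuclease inhibitor Rnh1 (0.83) and Dnase1l1 (−0.58) stayed within 2-fold. Of 10 genes of choline handling, the phosphodiesterase Enpp5 was lower (39.7 against 12.3 CPM, −1.69) and choline kinase Chka higher (16.5 against 43.5 CPM, 1.40), with Enpp4 at −0.78 and Chpt1 at −0.63.

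None of the 6 lysine degradation genes other than Aass was 2-fold lower or higher, with Hykk at −0.79, Phykpl at 0.46, Dld at 0.32 and Aldh7a1, which acts after Aass, at −0.27. Of 12 targets of Mylip and genes under sterol control, 2 were higher, the desaturase Scd2 (61.6 against 207.6 CPM, 1.75) and the cholesterol exporter Abca1 (37.4 against 98.9 CPM, 1.40), and Srebf1 (0.86) and Lpcat3 (0.83) were not past 2-fold. Of 6 cadherins and adiponectin receptors, Pcdh1 (3.47 against 29.2 CPM, 3.07) and Pcdh17 (400.6 against 1578 CPM, 1.98) were higher, while Pcdh12 (−0.83) and Adipor1 (−0.80) stayed within 2-fold. Below 10 CPM, Cdh1, Cdh2 and Cdh6, named after their values were seen, were at 1.30, 1.90 and 0.604 CPM in control. They were lower in Maf LSEC-KO, with 8, 5 and 3 UMIs there, and their control UMIs came from 9, 23 and 8 cells. Cdh11, also named after its values were seen, was at 1.45 and 1.25 CPM (−0.22). Among 4 proteins with leucine-rich repeats related to Tpbgl, Flrt1 was lower (52.7 against 4.17 CPM, −3.66), and Lrrc8a (−0.48), Lrg1 (0.47) and Lrrc32 (0.28) were not. Col25a1, the one gene of this level in the list of membrane collagens and olfactomedin proteins, was higher (0.876 against 14 CPM, 4.0).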

How the data were processed

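The data were 10x Chromium 3′ v3.1 single-cell libraries, 1 for control and 1 for Maf LSEC-KO, each from 3 pooled mice. The authors deposited UMI counts per gene and barcode, made with Cell Ranger 6.0.2 on mm10 according to the submitters' processing notes, which also name Seurat 5.0.1. The correction for empty droplets described in the study is not part of these counts. The control file held 5664 barcodes and 47681895 UMIs, and the Maf LSEC-KO file 7091 and 89872764.

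Cells needed 1500 UMIs and 750 genes, which 4961 and 5423 barcodes had, and were clustered in Seurat 5.3.0 at a resolution of 0.3, with 16 (control) and 20 (Maf LSEC-KO) principal components. A cluster was endothelial-like if at least 50% of its cells had Pecam1 and at least 7 of 14 endothelial genes reached that share, unless Adgre1, Clec4f, Ptprc, Cd52, Acta1 or Arg1 was found in over 50%. Doublets were the highest scores of Scrublet (scanpy 1.11.5) at 0.8% per 1000 barcodes (225 and 308 cells), since its automatic limit marked 0 cells. Endothelial-like cells with a Vwf UMI were left out (161 and 1162). A cluster led by stellate genes (Dcn, Acta2, Col3a1) in Maf LSEC-KO was left unnamed and out of the LSECs, a choice made after its values were seen.

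The 9 genes and the lists were chosen with earlier results of these data known. Besides the 9 genes, the text names Maf and Clec4g, the markers that build the classes, Ang, up to 4 genes per list with the largest absolute log2 ratio, and for each of the 9 genes the 3 most alike over clusters; genes that lead a cluster were named after their values were seen. With 1 library per condition no test across libraries was made. Intervals are exact Poisson, binomial and conditional binomial at 95% and cover counting error only. The scripts were tested on simulated data. Alternatives were other scalings, filters, doublet and cell rules, other Maf and zonal classes, and thinning to 2700 UMIs. Python 3.11.15, scipy 1.17.1 and R 4.3.3 were used, with edgeR 4.0.16 and DESeq2 1.42.0 for scaling factors only.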

Additional observations from a re-analysis of the deposited data

How the results depend on the processing

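Of 96 alternative values of the counts and the median, 86 moved by less than the counting error or 1.5 times, and the median stayed negative. All 9 genes were at least 4-fold lower in Maf LSEC-KO LSECs under each of 18 alternatives, and all 9 at least 2-fold higher with 5 or more Maf UMIs under each of 16. Among the 18, a minimum of 10 CPM and no minimum for the background share could not change the count of lower genes. They are also among the 86 values. The median log2 ratio of −4.18 moved to −4.37 with UMIs of all genes, −3.83 as a mean over cells, −3.72 after thinning, −3.86 with a marker filter in place of clusters, −3.85 without cells carrying Mki67 or Top2a, −5.06 without Maf LSEC-KO LSECs that had a Maf UMI, and, in alternatives chosen after seeing the data, −3.97 with the cluster led by Dcn and Ccl21a kept and −5.07 without the cluster led by Dnase1l3 and Maf. The cause of these shifts was not tested, except that the last removes 88.2% of the Dnase1l3 and 21.1% to 52.0% of the other UMIs by construction. With that Dcn cluster kept, the log2 ratios of Enpp6 and Rnase4 were −4.59 and −3.10. With Rspo3 alone as the zonal marker, 3 genes were higher and 1 lower in control, and the log2 ratio of Aass turned from 0.09 to −0.69 and that of Dnase1l3 from 0.20 to −0.21; thinning turned Aass to −0.07. The count higher with Maf in control was 4 to 5 over 14 alternatives. Other scalings shifted the condition ratio by −0.11 (TMM) and −0.10 (median of ratios). No paired analysis was possible because each condition has 1 library. Depth limits Enpp6 and Rnase4 most, with 78 and 133 UMIs in Maf LSEC-KO LSECs.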

Other observations

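Cells other than LSECs carried some of the 9 genes in the Maf LSEC-KO library, where most of the 9 genes were low in immune cells. In the unnamed cluster of 108 cells led by Dcn, Ccl21a and Acta2, genes of mesenchymal and lymphatic cells, Rnase4 was at 285.9 CPM [256.5 to 318] and Enpp6 at 88.9 CPM [72.9 to 107.5], while Dnase1l3 was at 5.82 and Col13a1 at 1.66 CPM. Rnase4 was thus above its control LSEC level of 77.3 CPM there, and the interval of Enpp6 included its control LSEC level of 80.7 CPM. The Dnase1l3 level was below the 18.1 CPM of immune cells of the library, but both values rest on few UMIs and are given without intervals. Maf was at 175 CPM in this cluster.

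The macrophage-like cluster of 390 Maf LSEC-KO cells had Maf at 1508 CPM, below the 3453 CPM of control LSECs. Dnase1l3 was at 75.8 CPM there, Mylip at 95.7 and Rnase4 at 33.3 CPM, while Col13a1 was at 2.17, Cdh13 at 2.17 and Tpbgl at 4.33 CPM, and Enpp6 had no UMI, which allows up to 1.30 CPM. Maf transcripts were thus found in cells with few transcripts of Col13a1, Enpp6, Cdh13 and Tpbgl. In the cholangiocyte-like cluster of 37 cells Aass was at 64.9 CPM [45 to 90.7], and the other 8 genes were at 17.2 CPM (Olfm1) or less.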
